A study of Mus musculus with 12 samples.

Results

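Growth hormone and Stat5 signalling was followed through 10 genes chosen by name among the 52636 genes counted in mouse liver: the receptor gene Ghr, the kinase gene Jak2, the transcription factor genes Stat5a and Stat5b, the feedback inhibitor genes Socs2, Socs3 and Cish, the repressor genes Bcl6 and Cux2, and the growth factor gene Igf1. The RNA came from the left lateral liver lobe of 12 C57Bl/6J males aged 16 weeks, 1 library per mouse. The mothers of the 6 VDD-F1 mice ate a vitamin D deficient diet, with calcium gluconate added, from before mating until delivery, and the mothers of the 6 VDS-F1 mice ate a sufficient diet matched in its other nutrients. All mothers ate the sufficient diet after delivery and all offspring ate it after weaning, so the groups differ in what the mothers ate up to delivery. By the study's own account, vitamin D in serum recovers slowly after such a switch, so the low supply reached into the early life of the VDD-F1 mice, and exposure before and after birth cannot be told apart. A supplement of the study records a liver weight for 7 of the mice, called weighed here (VDD4, VDD5, VDD6, VDS3, VDS4, VDS5 and VDS6), and none for the other 5, called unweighed, a division that the sample labels do not give.

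Growth hormone from the pituitary binds its receptor on hepatocytes, the receptor-bound kinase Jak2 phosphorylates Stat5 proteins, and these enter the nucleus and switch on genes such as Igf1, Cish and Socs2. The Socs2, Socs3 and Cish proteins in turn dampen the receptor, which closes a feedback loop. In rodents growth hormone arrives in separate pulses in males and more evenly in females, and this pattern sets which sex-biased genes the liver uses. Bcl6 and Cux2 are repressors that answer to the pattern: Bcl6 is higher in male liver and Cux2 in female liver.

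Each library held between 14275793 and 20815066 fragments counted on genes, and the genes named here were scaled to CPM, the counts of a gene per 1000000 counts of its library, with a correction for library composition. The summed CPM of 11 hepatocyte marker genes was 107440 to 127680 in VDD-F1 and 101260 to 120340 in VDS-F1 livers. The Y-linked genes Ddx3y (41.1 to 62.0 CPM), Eif2s3y (16.9 to 30.7 CPM), Kdm5d (5.46 to 14.1 CPM) and Uty (9.79 to 15.4 CPM) were expressed in all 12 libraries. Xist, which females express from the inactive X chromosome, had 0 counts in 9 libraries, 1 in VDD5, 5 in VDS4 and 24 in VDS6. VDS6 also had 11.1% of its fragments on no annotated exon of the counted strand, against 2.52% to 4.94% in the other libraries. In whole liver, fewer cells of a type and less RNA per cell cannot be told apart.

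Activated Stat5 binds the palindrome TTCNNNGAA, where N is any base. The sequences are shown because 3 of the 9 members that have a promoter entry in the RefSeq table (build GRCm38.p6) carry this motif between 250 bases before and 50 bases after an annotated start, and these 3, Cish, Socs3 and Bcl6, were also among the 4 most variable members between livers. Capitals mark the motif. The starts are those of RefSeq, and the Socs3 stretch, upstream of its RefSeq start, lies inside the gene but outside its exons in the GENCODE annotation. The motif is a palindrome, so a match on one strand is a match on both.
Cish, chr9:107296654-107296683, plus strand, across the annotated start and into the first exon: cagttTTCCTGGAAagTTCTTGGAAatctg
Socs3, chr11:117969501-117969530, minus strand, upstream of the start: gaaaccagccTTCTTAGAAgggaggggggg
Bcl6, chr16:23988956-23988976, minus strand, upstream of the first start: aattagTTCTCAGAAttccag
Bcl6, chr16:23981357-23981457, minus strand, upstream of a second start inside the gene and outside annotated exons: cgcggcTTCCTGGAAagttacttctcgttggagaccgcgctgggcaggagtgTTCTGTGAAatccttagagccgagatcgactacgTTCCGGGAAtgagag
In these windows of 300 bases the motif occurred in 8.3% of 32851 promoters of all genes and in 4 of the 14 promoters of the members. Counted per gene, it occurred in 9.55% of all genes with an entry. In the lists of sex-biased genes used below it occurred in 6.25% of male-biased and 24.0% of female-biased genes with an entry. Cish had 2 copies and the inner promoter of Bcl6 had 3, while 0.457% of all promoters had at least 2 copies and 11 promoters had at least 3. Such a match of letters is a description and does not show that Stat5 was bound there. Socs2, the remaining one of the 4 most variable members, had no promoter entry and could not be counted either way.

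The levels of the 10 genes, given per length as TPM (transcripts per 1000000), spanned a wide range. Igf1, which encodes the circulating growth factor that the liver secretes under growth hormone, was the highest, with 125 ± 34.1 TPM (mean ± SD, n = 12 livers), followed by Ghr with 107 ± 23.9 TPM. These neighbours overlapped, with 72.6 to 190 TPM for Igf1 and 64.8 to 143 TPM for Ghr. Stat5b stood apart below them at 25.9 ± 5.27 TPM and did not reach the lowest Ghr value in any liver. Its close relative Stat5a was at 4.07 ± 1.04 TPM, below Stat5b in each of the 12 livers, and the mean of Jak2 lay between them at 7.37 ± 2.04 TPM, with a range that overlapped that of Stat5a. Bcl6 averaged 14.8 ± 12.7 TPM and ran from 1.11 to 34.6 TPM, so that it overlapped every gene from Stat5b down to Cish. Socs3 (4.25 ± 3.02 TPM), Cish (5.04 ± 5.02 TPM), Socs2 (3.21 ± 1.51 TPM) and Stat5a overlapped one another and have no clear order. Cux2 was lowest at 0.102 ± 0.0674 TPM, with 3 to 20 counts per library.

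**Figure D1:**
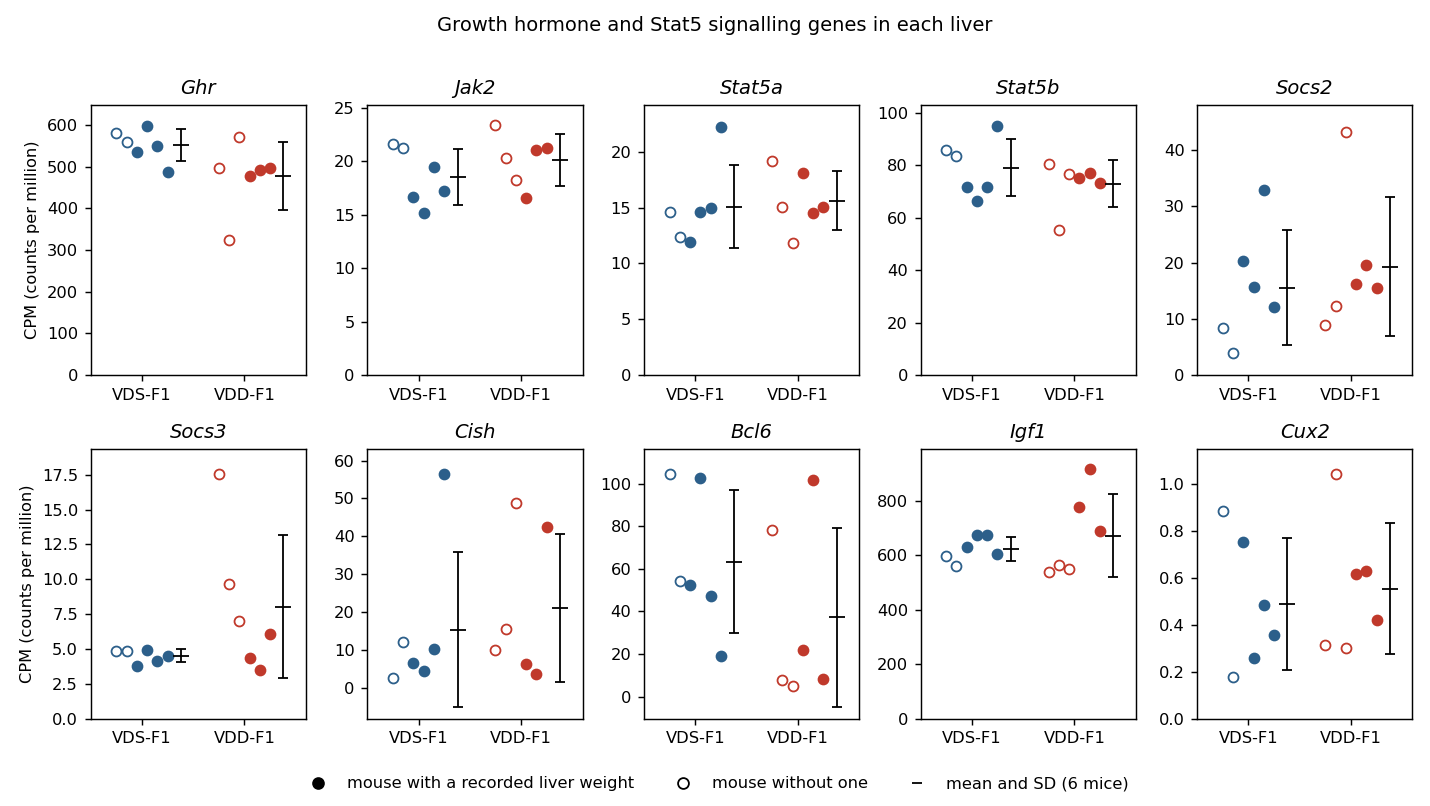
CPM of each of the 10 genes (vertical axes, each on its own scale) in the 6 VDS-F1 and 6 VDD-F1 livers, 1 point per mouse, filled for the 7 weighed and open for the 5 unweighed mice, with the mean and SD of each group as a black bar. Ghr, Jak2, Stat5a and Stat5b each span less than the inhibitors do, with VDS6 high for Stat5a and VDD2 low for Stat5b, whereas Socs2, Cish and Bcl6 are spread widely in both groups and high values of Socs3 occur in VDD-F1 alone.

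The genes of the receptor, the kinase and Stat5b varied less between mice than the median gene, and Stat5a slightly more. Over the 12 livers the coefficient of variation of CPM was 14.1% for Ghr, 13.2% for Jak2, 20.2% for Stat5a and 13.1% for Stat5b, beside a median of 18.8% over all 12453 genes tested. The target Igf1 was near them, at 16.9%. The feedback inhibitors and Bcl6 were of another order: 106% for Cish, 77.1% for Bcl6, 62.8% for Socs2 and 62.7% for Socs3. Of all genes tested, 98.9% had a lower coefficient than Cish, 96.7% a lower one than Bcl6, and 93.8% a lower one than either Socs2 or Socs3. From the lowest to the highest liver, Cish ran over 22.5-fold, Bcl6 over 20.7-fold, Socs2 over 11-fold and Socs3 over 4.98-fold, against 1.84-fold for Ghr and 1.72-fold for Stat5b. These values rest on 51 to 911 counts per library for Cish, 67 to 2113 for Bcl6, 67 to 575 for Socs2 and 55 to 278 for Socs3. The spread of Cish was as wide within each diet group, with a coefficient of 92.6% within VDD-F1 and 133% within VDS-F1. For Socs3 it was 64.0% within VDD-F1 and 10.3% within VDS-F1.

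The question of the design is whether the diet of the mother before birth left these genes at another level in the adult offspring. With edgeR (quasi-likelihood, p-values adjusted over all genes tested), 0 of the 9 members with enough counts passed an adjusted p of 0.05, where 0.0402% of all genes did (5 of 12453, with 0.0161% higher and 0.0241% lower in VDD-F1). DESeq2 called 0 of the 9 members too, and 4.05% of all genes. At an unadjusted p under 0.05 there was 1 member, Socs3, which was higher in VDD-F1, and 15.8% of all genes were below that value. The median log2 fold change of the 9 members was 0.11, with 6 higher and 3 lower, beside a median of 0.0041 over all genes. In every member the values of the diet groups overlapped, while in 0.61% of all genes the VDD-F1 mice all lay above, and in 0.57% all below, the VDS-F1 mice.

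**Figure D2:**
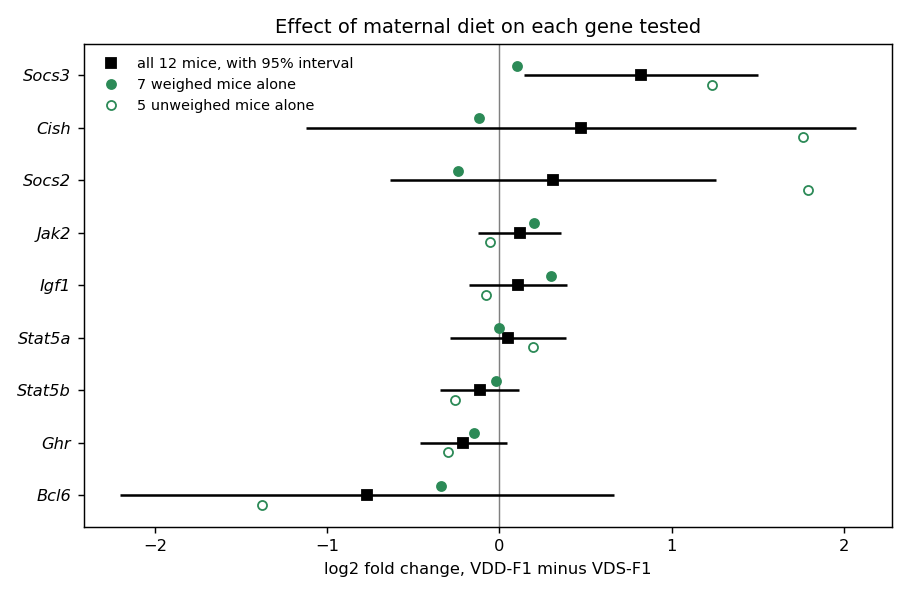
Log2 fold change of VDD-F1 over VDS-F1 (horizontal axis) for the 9 genes tested, as black squares with 95% intervals for all 12 mice, and as green points for the 7 weighed (filled) and 5 unweighed mice (open) fitted alone. Among the intervals for all 12 mice, that of Socs3 alone leaves out 0, and those of Cish and Bcl6 are the widest.

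Ghr, the gene of the receptor at the head of the pathway, was at 497, 325, 572, 479, 493 and 496 CPM in VDD1 to VDD6. In VDS1 to VDS6 it was at 581, 560, 535, 598, 550 and 488 CPM. VDD2 was the lowest liver, VDD3 alone among the VDD-F1 livers lay above 500 CPM, and the groups overlapped between VDS6 and VDD3. The mean was 477 ± 81.6 CPM in VDD-F1 and 552 ± 38.6 CPM in VDS-F1 (SD, n = 6 each), and the log2 fold change was -0.21 ± 0.12 (SE, adjusted p = 0.406), with a 95% interval from -0.46 to 0.04. With voom and quality weights the log2 fold change was -0.19 (unadjusted p = 0.0474, adjusted p = 0.213). With edgeR the value was -0.12 without VDD2 and -0.27 without VDD3 (unadjusted p = 0.0310, adjusted p = 0.220 for the latter). It was -0.15 in the weighed mice alone and -0.30 in the unweighed mice alone, where VDD2 is 1 of 3 VDD-F1 livers and the other 2, at 497 and 572 CPM, lay beside VDS-F1 livers at 581 and 560 CPM.

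Jak2, the kinase that carries the signal from the receptor, lay between 16.5 and 23.4 CPM in VDD-F1 (median 20.7) and between 15.1 and 21.6 CPM in VDS-F1 (median 18.3). Its log2 fold change was 0.12 ± 0.11 (adjusted p = 0.651, 95% interval -0.12 to 0.36). The ranges nearly coincided.

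Stat5b, which carries most of the growth hormone signal in male liver, lay between 55.4 and 80.4 CPM in VDD-F1 (median 76.0) and between 66.4 and 95.2 CPM in VDS-F1 (median 77.7). VDD2 alone lay below the VDS-F1 range. The log2 fold change was -0.12 ± 0.11 (adjusted p = 0.643), and the 95% interval ran from -0.35 to 0.12. Stat5a, its neighbour on chromosome 11 and its partner in dimers, lay between 11.8 and 19.2 CPM in VDD-F1 (median 15) and between 11.9 and 22.3 CPM in VDS-F1 (median 14.6). Its log2 fold change was 0.05 ± 0.16 (adjusted p = 0.914), with an interval from -0.28 to 0.38, and the highest value was that of VDS6.

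Socs3, an inhibitor induced by several cytokines as well as by growth hormone, was at 17.5, 9.66, 7.0, 4.33, 3.52 and 6.11 CPM in VDD1 to VDD6. In VDS1 to VDS6 it was at 4.89, 4.84, 3.78, 4.94, 4.17 and 4.51 CPM. The 3 unweighed VDD-F1 livers and VDD6 lay above every VDS-F1 liver, VDD4 fell within their narrow range and VDD5 below it. The mean was 8.03 ± 5.14 CPM in VDD-F1 and 4.52 ± 0.466 CPM in VDS-F1, a log2 fold change of 0.82 ± 0.32 (unadjusted p = 0.0211, adjusted p = 0.233, 95% interval 0.14 to 1.5). Without VDD1 the log2 fold change was 0.44 (unadjusted p = 0.0766), and with voom and quality weights it was 0.38 (unadjusted p = 0.196).

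Socs2, the inhibitor whose loss makes mice grow large, was at 8.96, 12.4, 43.3, 16.2, 19.6 and 15.5 CPM in VDD1 to VDD6. In VDS1 to VDS6 it was at 8.34, 3.95, 20.3, 15.7, 32.9 and 12.2 CPM. VDD3 and VDS5 were the high livers of their groups and VDS2 the lowest of all, and the ranges overlapped over most of their length. The log2 fold change was 0.31 ± 0.44 (adjusted p = 0.779), with an interval from -0.64 to 1.26, and it was -0.10 without VDD3.

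Cish, the inhibitor whose start site carries the paired motifs above, was at 10, 15.6, 48.9, 6.25, 3.52 and 42.5 CPM in VDD1 to VDD6. In VDS1 to VDS6 it was at 2.52, 12.2, 6.53, 4.27, 10.1 and 56.5 CPM. In 3 livers, VDD3, VDD6 and VDS6, it stood above 40 CPM and in the other 9 at or below 15.6 CPM, so high livers occurred in both groups. The log2 fold change was 0.47 ± 0.75 (adjusted p = 0.805), and its 95% interval, from -1.13 to 2.07, holds a fall and a rise of more than 1 log2 unit. Without VDS6 the value was 1.58.

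Bcl6, the repressor that competes with Stat5 for its sites, was described per liver after its values were seen, since its spread was among the widest. It was at 78.3, 7.88, 5.05, 21.9, 102 and 8.16 CPM in VDD1 to VDD6. In VDS1 to VDS6 it was at 104, 54.0, 52.3, 103, 47.0 and 19.2 CPM. Among the VDD-F1 livers 3 lay below the lowest VDS-F1 liver, while VDD1 and VDD5 lay with the highest, and the median was 15 CPM in VDD-F1 and 53.2 CPM in VDS-F1. The log2 fold change was -0.77 ± 0.67 (adjusted p = 0.613, 95% interval -2.20 to 0.66). It was -1.39 without VDD5 and -1.31 with voom and quality weights, neither past the adjusted threshold.

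Cux2, the female-biased repressor, did not pass the minimum mean count of 12 and is the member left out of the main test. It was between 0.301 and 1.04 CPM in VDD-F1 and between 0.177 and 0.888 CPM in VDS-F1. With a filter on the total count in place of the mean its log2 fold change was 0.19 ± 0.48 (adjusted p = 0.903), and a difference of up to 1.2 in log2 units would lie within its interval.

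Igf1, the pathway's best known product, was at 538, 563, 550, 776, 916 and 689 CPM in VDD1 to VDD6. In VDS1 to VDS6 it was at 599, 562, 630, 674, 674 and 605 CPM. The 3 weighed VDD-F1 livers were the 3 highest of all 12, and the 3 unweighed VDD-F1 livers lay close to the lowest VDS-F1 liver. The log2 fold change over all mice was 0.11 ± 0.13 (adjusted p = 0.740, 95% interval -0.18 to 0.39), and -0.0038 without VDD5.

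The diet difference was also examined within each set of mice. In the 7 weighed mice 0 members passed the adjusted threshold, where 11% of all genes did. At an unadjusted p under 0.05 there was 1, Igf1, higher in VDD-F1, where 13% of all genes were. It had a log2 fold change of 0.30 ± 0.10 (unadjusted p = 0.0129, adjusted p = 0.0856), and all 3 VDD-F1 livers (689 to 916 CPM) lay above all 4 VDS-F1 livers (605 to 674 CPM). Of all genes, 12% had weighed VDD-F1 mice wholly above the weighed VDS-F1 mice. In the 5 unweighed mice the log2 fold change of Igf1 was -0.08 ± 0.17.

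The feedback inhibitors had their larger differences in the unweighed mice, where 2 of the 9 members had an unadjusted p under 0.05, both higher in VDD-F1, and 2.05% of all genes were higher at that value. Socs3 had a log2 fold change of 1.23 ± 0.41 in the unweighed mice (unadjusted p = 0.0203, adjusted p = 0.9998) and 0.10 ± 0.23 in the weighed mice. Socs2 had 1.79 ± 0.73 in the unweighed mice (unadjusted p = 0.0442, adjusted p = 0.9998) and -0.24 ± 0.27 in the weighed mice. Cish had 1.76 ± 0.85 in the unweighed and -0.12 ± 0.90 in the weighed mice. In the unweighed mice 2 members, Socs2 and Socs3, were higher in all VDD-F1 than in all VDS-F1 livers, where 8.96% of all genes were, and 1 member, Stat5b, was lower, where 9.5% of all genes were. No gene of 12541 passed the adjusted threshold in the unweighed mice, and 473 had an unadjusted p under 0.05.

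The difference between the diet effects of the 2 sets was tested as an interaction term. It passed the adjusted threshold in 0 of the 9 members, where 0.0883% of all genes did, and in 0 of the 9 with DESeq2. At an unadjusted p under 0.05 there were 3 members, where 9.01% of all genes were. These were Socs2 (weighed minus unweighed -2.03 ± 0.77, unadjusted p = 0.0208, adjusted p = 0.442), Socs3 (-1.13 ± 0.45, unadjusted p = 0.0265, adjusted p = 0.489) and Igf1 (0.37 ± 0.17, unadjusted p = 0.0486, adjusted p = 0.550). Without strand and with DESeq2 size factors the unadjusted p of Igf1 was 0.0589 and 0.0605, and with the DESeq2 test it was 0.0375. A difference between the sets is therefore not shown for any member.

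Members were also compared with each other across the 12 livers, as log2 CPM over 36 pairs of the 9 members tested. The pair with the largest correlation was Cish and Bcl6, the gene of a rapid Stat5 target and the gene of a repressor, which ran in opposite directions. Pearson's r was -0.816 (permutation p = 0.0016, adjusted over the pairs 0.0580) and Spearman's rho was -0.839 (permutation p = 0.0012, adjusted 0.0428), so that the rank form alone passed after adjustment. The 3 livers with the most Cish, VDD3, VDD6 and VDS6, had 5.05, 8.16 and 19.2 CPM of Bcl6, and the 3 with the least, VDS1, VDD5 and VDS4, had 104, 102 and 103 CPM.

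The relation between Cish and Bcl6 had the same direction in both diet groups. Within VDD-F1 r was -0.839 and within VDS-F1 it was -0.965, with 6 mice each. In the 7 weighed mice r was -0.832, and none was computed over the 5 unweighed mice, since correlations were kept to at least 6. Without VDD3 and VDS6, the livers farthest from the median of Cish, r was -0.796. The next pair, Socs3 and Igf1, had r = -0.618 (permutation p = 0.0378, adjusted 0.681) and rho = -0.643 (permutation p = 0.0277, adjusted 0.456). Its r was -0.873 within VDD-F1, -0.296 within VDS-F1 and -0.369 within the 7 weighed mice.

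**Figure D3:**
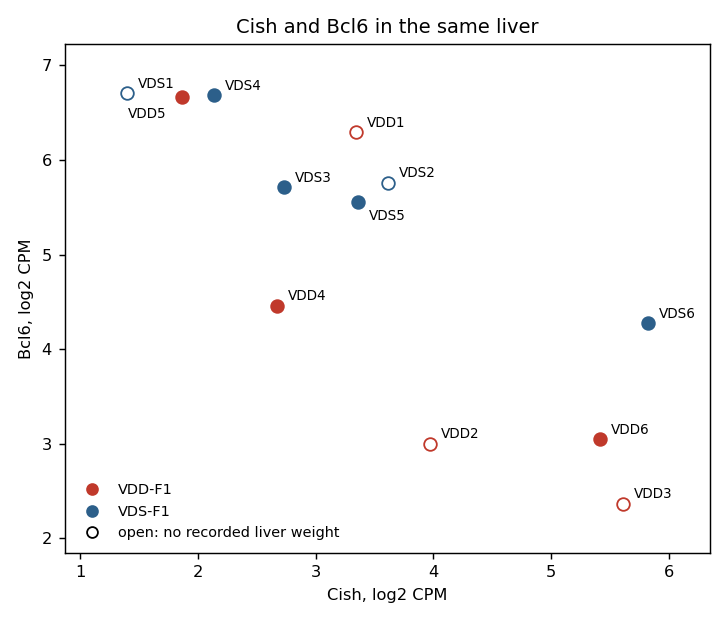
Log2 CPM of Cish (horizontal axis) and Bcl6 (vertical axis) in each of the 12 livers, red for VDD-F1, blue for VDS-F1 and open for mice without a recorded liver weight. The points run from VDS1, VDD5 and VDS4 at the upper left to VDD3, VDD6 and VDS6 at the lower right, with both diets at either end.

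The genes whose log2 CPM followed a member most closely over the 12 livers are given as a description, since the best of 12453 genes are picked by their fit. For Socs3 the most alike were St3gal3 (r = 0.892), Gna13 (0.872) and Slc25a22 (0.848), and the most opposed were Dhx29 (-0.911), Abca8a (-0.896) and Gspt1 (-0.873). For Ghr they were Ugt3a2 (0.952), Sel1l (0.949) and Calr (0.948), with Ppp1r9b (-0.955), Dbn1 (-0.932) and Arhgef2 (-0.930) most opposed. For Bcl6 they were Zscan26 (0.884), Pou6f1 (0.882) and Krit1 (0.876), with Rnd3 (-0.929), Rplp1 (-0.890) and Lage3 (-0.880) most opposed. The points share the sequencing depth and composition of the 12 libraries.

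Other genes of the pathway, fixed as a list of 24, are receptors, kinases, Stat proteins, phosphatases, adaptors and inhibitors that act beside the members. Of the 23 with enough counts, 0 passed the adjusted threshold in either direction with edgeR or DESeq2, and the median log2 fold change was -0.01. At an unadjusted p under 0.05 there was 1 higher in VDD-F1, where 9.55% of all genes were, and 1 lower, where 6.29% were. The higher one was Sh2b2, an adaptor that binds Jak2, with 2.79 to 5.35 CPM in VDD-F1 (median 3.82) and 1.78 to 3.28 CPM in VDS-F1 (median 2.81) and a log2 fold change of 0.51 ± 0.21 (adjusted p = 0.247). The lower one was Irs1, a docking protein of the insulin and Igf1 receptors, with 45.0 to 81.3 CPM in VDD-F1 (median 62.7) and 68.2 to 102 CPM in VDS-F1 (median 76.5) and a log2 fold change of -0.34 ± 0.15 (adjusted p = 0.271). The 9 genes of Igf binding proteins and receptors held 0 at an unadjusted p under 0.05, 0 called by either tool, and had a median of -0.03.

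The transcription factors that act on liver genes together with Stat5 were taken as a list of 16. With edgeR and with DESeq2, 0 of 16 passed the adjusted threshold, 3 had an unadjusted p under 0.05, all lower in VDD-F1, where 6.29% of all genes were, and the median log2 fold change was -0.18. These were Nr1i3, the xenobiotic sensor CAR (-0.83 ± 0.35, adjusted p = 0.273), Cux1, a relative of Cux2 (-0.22 ± 0.10, adjusted p = 0.287), and Hnf4a, a main regulator of hepatocyte genes (-0.29 ± 0.13, adjusted p = 0.301). The log2 fold change of Nr1i3 was -1.68 in the weighed and -0.08 in the unweighed mice (adjusted p of the interaction 0.409), and that of Hnf4a was -0.46 and 0.07 (0.496).

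Male-biased liver genes are the classic readout of pulsatile growth hormone through Stat5b. Like every list here, theirs was chosen with earlier results of these data known. Its counts are therefore a description and not independent support. Of the 25 male-biased genes, 2 fell in VDD-F1 at the adjusted threshold, where 0.0241% of all genes did, and 0 rose. They were Mup1 and Mup12, which encode major urinary proteins that males secrete to carry pheromones. Mup1 was at 0.679 to 11.9 CPM in VDD-F1 (median 4.05) and 20.9 to 66.9 CPM in VDS-F1 (median 48.9), and its log2 fold change was -3.32 ± 0.49 (adjusted p = 0.0269). Mup12 was at 0.783 to 9.22 CPM in VDD-F1 (median 2.50) and 16.6 to 49.2 CPM in VDS-F1 (median 32.1), with -3.17 ± 0.46 (adjusted p = 0.0269). For both genes every VDD-F1 liver lay below every VDS-F1 liver. Neither was called by the robust form of the edgeR fit, nor when any 1 of 7 mice was left out (VDD4, VDD5, VDD6, VDS3, VDS4, VDS5 or VDS6).

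A further 11 male-biased genes had an unadjusted p under 0.05, which makes 13 of 25, all lower in VDD-F1, where 6.29% of all genes were, and the list's median log2 fold change was -0.56. Cyp7b1, an oxysterol hydroxylase, was at 13.3 to 148 CPM in VDD-F1 (median 87.4) and 144 to 332 CPM in VDS-F1 (median 288), with a log2 fold change of -1.68 ± 0.41 (adjusted p = 0.0918). Mup11 was at 1.72 to 82.5 CPM in VDD-F1 (median 8.32) and 106 to 266 CPM in VDS-F1 (median 174), with -2.64 ± 0.72 (adjusted p = 0.112). In 6 of the 25 genes all VDD-F1 livers lay below all VDS-F1 livers, as they did in 0.57% of all genes. They were Hsd3b5, Mup1, Mup7, Mup11, Mup12 and Mup17, so most of this count comes from Mup genes, which may not be independent of one another. DESeq2 called 7 of the 25, all lower, where it called 1.24% of all genes lower. The Mup genes are near-identical copies, so fragments that fit several of them are not counted and the values of single Mup genes are uncertain.

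Female-biased genes, which continuous growth hormone sustains, gave 0 calls at the adjusted threshold among the 18 of 34 with enough counts. Of the 18, 3 (Cyp2a4, Slc22a26 and Slc22a27) reached the minimum mean count through VDD-F1 alone, with a mean of 2.33 to 11.7 counts in VDS-F1, so that the filter itself favours higher values for them. An unadjusted p under 0.05 was found in 5 of the 18, all higher in VDD-F1, where 9.55% of all genes were, and in 4 of the other 15. The median log2 fold change was 0.74 over the 18 and 0.66 over the 15. Cyp2a4, a steroid hydroxylase with the near-identical neighbour Cyp2a5, was at 0.126, 40.4, 0, 36.2, 26.6 and 25.2 CPM in VDD1 to VDD6 and between 0 and 0.416 CPM in VDS-F1, a log2 fold change of 7.18 ± 1.30 (adjusted p = 0.0627). It was high in 4 of the 6 VDD-F1 livers, and VDD1 and VDD3 were at the level of the VDS-F1 livers. Rtn4, a protein that shapes the endoplasmic reticulum, was at 43.7 to 89.3 CPM in VDD-F1 (median 60.3) and 26.5 to 44.1 CPM in VDS-F1 (median 36.0), with 0.79 ± 0.16 (adjusted p = 0.0640). Ntrk2, a neurotrophin receptor, had a log2 fold change of 2.25 ± 0.56 (adjusted p = 0.0947) and Nipal1, a magnesium transporter, 1.42 ± 0.51 (adjusted p = 0.199). DESeq2 called 3 of the 18 (Cyp2a4, Rtn4 and Ntrk2), all higher, and 2 of the other 15, where it called 2.8% of all genes higher.

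The other 16 female-biased genes stayed under the filter, 3 of them with 0 counts in all 12 libraries, and the highest count of any of them in any library was 32. Among them was Cyp3a41a, which adult female liver expresses strongly, with 0 or 1 count per library. Fragments that also fit its relative Cyp3a41b, itself at 0 to 4 counts, are not counted. The low count therefore does not show that Cyp3a41a was silent. Prlr, the prolactin receptor gene and a female-biased gene, had a log2 fold change of -0.0035 ± 0.24 (adjusted p = 0.996). Cyp3a41a and Prlr were chosen after their values were seen.

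**Figure D4:**
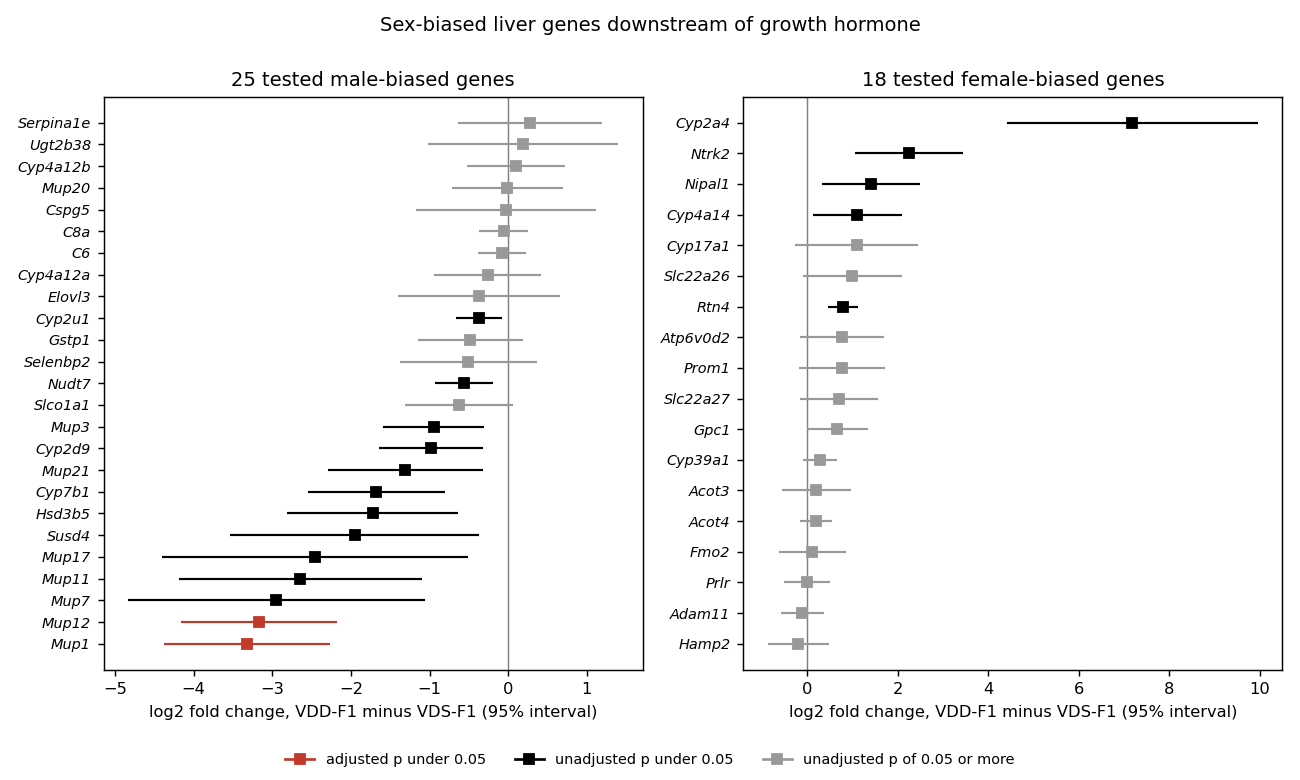
Log2 fold change of VDD-F1 over VDS-F1 with its 95% interval (horizontal axes, on different scales) for the 25 male-biased genes (left) and the 18 female-biased genes tested (right), red at an adjusted p under 0.05, black at an unadjusted p under 0.05 and grey otherwise. Mup1 and Mup12 are the red genes, 22 of the 25 male-biased genes lie below 0 and 15 of the 18 female-biased genes lie above it.

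The male-biased genes were also examined within each set of mice. In the 7 weighed mice 12 of them were lower and 3 higher in VDD-F1 at the adjusted threshold, where 5.11% of all genes were lower and 5.87% higher. The 3 higher ones, named after their values were seen, were Serpina1e, C8a and Mup20. In the 5 unweighed mice 0 were called, as were 0 of all 12541 genes tested there, so that this count says nothing about these genes. The median log2 fold change of the list was -0.38 in the weighed and -0.97 in the unweighed mice, where VDD2 is 1 of 3 VDD-F1 livers, and the difference between these medians was not tested. Serpina1e, which encodes a male-biased protease inhibitor, was the gene of the male-biased, female-biased and pathway lists whose interaction with the set passed the adjusted threshold (log2 fold change 0.94 in the weighed and -1.12 in the unweighed mice, adjusted p = 0.0109). Without VDD1, 5 male-biased genes were called, beside 420 of all 12464 genes tested. VDD2 had the lowest value of all 12 livers for Mup1, Mup12, Cyp7b1 and Mup11, and without it 3 male-biased genes were called, beside 8 of all 12369 genes tested.

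The members' values can be set beside those of the sex-biased genes in the same liver. VDD2, VDD4, VDD5 and VDD6, the 4 livers with high Cyp2a4, had 6.63 to 24.4 CPM of Mup7, a gene also chosen after its values were seen. Mup7 was at 505 CPM in VDD1 and 242 CPM in VDD3, both below the VDS-F1 livers, which were at 652 to 1605 CPM. These 4 livers had 7.88, 21.9, 102 and 8.16 CPM of Bcl6, 15.6, 6.25, 3.52 and 42.5 CPM of Cish, and 325, 479, 493 and 496 CPM of Ghr. Bcl6 and Cish ran over most of their whole range in the 4 livers. Igf1 was at 563, 776, 916 and 689 CPM in these 4, and at 538 in VDD1 and 550 in VDD3. The 4 livers were set apart by a measured value, so nothing was tested between them and the other 2. VDD4, VDD5 and VDD6 are weighed mice and VDD1, VDD2 and VDD3 are not, so this division can hardly be told apart from that of the sets. Onecut1, the factor Hnf6, which acts with Stat5 on some sex-biased genes, was also looked at after its values were seen, and was at 11.2 to 82.8 CPM in VDD-F1 and 13.8 to 85.4 CPM in VDS-F1 (log2 fold change -0.03 ± 0.50, adjusted p = 0.988).

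Markers of other cell types and states were examined beside these results, and with edgeR 0 of them passed the adjusted threshold. DESeq2 called 6 proliferation genes, 4 stellate, 1 dendritic, 1 lymphocyte and 1 hepatocyte marker, 2 clock genes and 1 acute phase gene, where it called 2.8% of all genes higher and 1.24% lower. The counts at an unadjusted p under 0.05 that follow stand beside 9.55% of all genes higher and 6.29% lower, and a list of few genes can lie near these shares. Proliferation genes were higher in VDD-F1 at an unadjusted p under 0.05 in 11 of the 11 tested, with a summed CPM of 12.3 to 113 in VDD-F1 and 8.12 to 11.7 in VDS-F1 (medians 26.3 and 9.38). VDD2 stood apart among the VDD-F1 livers, with 43.2 CPM of Mki67, a gene of dividing cells, against 5.12 to 12 in the other 5. Of these 11 genes, 8 reached the minimum mean count through VDD-F1 alone, so the count over the list is partly fixed by the filter. For Ncapg2, a condensin subunit and 1 of the other 3 (1.81 ± 0.36, adjusted p = 0.0640), all VDD-F1 livers lay above all VDS-F1 livers. Stellate cell markers were higher in 6 and lower in 1 of 12 (467 to 1172 CPM against 469 to 658), cholangiocyte markers higher in 3 of 6 (24.2 to 120 against 28.3 to 52.1) and dendritic cell markers higher in 2 of 3 (14.5 to 42.9 against 13.3 to 17.3). Kupffer cell markers were lower in 3 of 12 (238 to 584 against 294 to 523), endothelial markers higher in 1 and lower in 2 of 12 (515 to 641 against 492 to 722), lymphocyte markers lower in 1 of 3 (2.41 to 14.8 against 4.10 to 7.08) and hepatocyte markers lower in 2 of 11. Clock genes were lower in 3 of 16, Cry2, Hlf and Per2 (342 to 571 CPM against 453 to 828) and acute phase genes, which cytokines induce, in 1 of 15, Saa4 (16713 to 22056 against 15916 to 27074). At any p, 15 of the 16 clock genes (median log2 fold change -0.34) and 12 of the 15 acute phase genes (-0.23) were lower in VDD-F1. Of all 12453 genes, 6124 were. Muc1 of the cholangiocyte and Cd79a of the lymphocyte list also reached the minimum mean count through VDD-F1 alone. Neither is among the markers at an unadjusted p under 0.05. No marker of these lists was at 0 in all libraries. The part of these markers in the values of Socs3 and of the sex-biased genes was not tested.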

How the data were processed

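RNA from 12 male livers was measured with a stranded kit that removes ribosomal RNA. After trimming, the authors used STAR with mm10 and GENCODE M15, and the deposited values are raw fragment counts for each gene, not normalized. STAR leaves out fragments that map to several places. The reverse-strand count was used, since it held 92.7% to 95.8% of stranded counts, and the paper names no column. Between 37.4% and 50.3% of fragments, most of them unmapped (23.5% to 37.9% of all), were counted on no gene and were left out. Symbols came from GENCODE M21 (GRCm38, 52489 of 52636 matched), promoters from RefSeq.

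Diets were compared with edgeR 4.0.16 in R 4.3.3 (TMM, quasi-likelihood, legacy form) on the 12453 genes whose mean count reached 12, and p-values were adjusted over all of them (Benjamini-Hochberg). The paper's methods name DESeq2. CPM were scaled with TMM, log2 CPM used a prior count of 2, and TPM used the summed exon length. Correlations used 100000 permutations (SciPy 1.17.1). The alternatives were DESeq2 1.42.0, voom in limma 3.58.1, a robust fit, other scaling, filters and strand, the set of mice, a replicate block and each mouse left out. On simulated data with 200 changed genes among 12453, edgeR called 190 with 7 false calls and DESeq2 188 with 23. The simulation gave every gene the same relative spread between mice, changes of fixed size and no sets of mice. These settings differ from the data, so the counts do not measure power or false calls here.

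The members and gene lists were chosen with earlier results of these data known. All 10 members are named, with values per library for Ghr, Socs2, Cish, Igf1 and any member at an unadjusted p under 0.05. Of each list, up to 4 genes per direction with the smallest unadjusted p under 0.05 and any gene past the adjusted threshold were eligible. Nothing says that the mice of a group came from separate litters, so p-values measure the spread between these mice.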

Additional observations from a re-analysis of the deposited data

Results flagged for a closer look

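Among the 20 combinations of a member and a diet group, 4 held a liver far from the other 5 of its group, by Dixon's ratio of the gap to the range. About 1 in 20 such groups would be marked by chance if the values were normally distributed, which was not checked. Stat5a was at 22.3 CPM in VDS6, where the other VDS-F1 livers were between 11.9 and 14.9 CPM. Cish was at 56.5 CPM in VDS6, where the others were between 2.52 and 12.2 CPM. VDS6 is also the library with 11.1% of its fragments on no annotated exon of the counted strand, and the part of this in both values was not tested. Socs2 was at 43.3 CPM in VDD3, with the other VDD-F1 livers between 8.96 and 19.6 CPM. Stat5b was at 55.4 CPM in VDD2, with the others between 73.4 and 80.4 CPM, and VDD2 also had the lowest Ghr value, 325 CPM.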

How the results depend on the processing

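The count of members called stayed at 0 under all 23 alternatives, and so did that of the pathway genes. Of 207 member values under the alternatives, 197 kept their direction and the lowest adjusted p was 0.0856. In the weighed mice alone Stat5a (-0.0038), Socs2 (-0.24) and Cish (-0.12) reversed, and in the unweighed mice alone Jak2 (-0.0516) and Igf1 (-0.0753) did. The cause was not tested. With 1 mouse left out, Stat5a ran from -0.0173 to 0.19, Socs2 from -0.10 (without VDD3) to 0.67, Igf1 from -0.0038 (without VDD5) to 0.16, Socs3 from 0.44 to 0.98, Cish from 0.04 to 1.58, Bcl6 from -1.39 to -0.54, Ghr from -0.27 to -0.12, Jak2 from 0.06 to 0.17 and Stat5b from -0.16 to -0.05. Counts of calls moved more. Over all genes, 5 in the main test, they were 504 with DESeq2, 590 with voom, 2 with the robust fit, 85 with every gene above 0 counts, 28 with the set as covariate, 1358 in weighed and 0 in unweighed mice, and 0 to 420 with 1 mouse left out (420 without VDD1). Male-biased genes, 2 in the main test, gave 7 with DESeq2, 11 with voom, 0 with the robust fit, 15 in weighed and 0 in unweighed mice, and 0 to 5 with 1 mouse left out. Female-biased genes, 0 in the main test, gave 3 with DESeq2, 3 with voom, 3 with every gene above 0 counts, 1 with the set as covariate, and 0 to 3 with 1 mouse left out. In weighed mice they gave 6, all higher in VDD-F1, where 5.87% of all genes were. With the replicate number as a block, 19 genes in all, 3 male-biased, 2 female-biased and 0 members were called, and Bcl6 had a log2 fold change of -1.48, but the numbers do not pair the mice: the deviations of same-numbered mice correlated between -0.0762 and 0.103, and 0 of 6 numbers correlated best with itself. The 3 to 20 counts of Cux2 limit what can be said of it.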
